A study of Mus musculus with 6 samples.

Results

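The genes described are 10 that write, read or help to place methylation of histone H3 at lysine 9 (H3K9): the methyltransferases Ehmt1, Ehmt2, Suv39h1, Suv39h2, Setdb1 and Setdb2, the heterochromatin protein 1 (HP1) genes Cbx1, Cbx3 and Cbx5, and the corepressor Trim28. The rule was a list of names and used no values, though it was drawn up with earlier results of these data known, and all 10 were found by symbol among the 16081 genes listed. All 10 passed the filter on low counts and were among the 11552 genes tested. RNA-seq had been carried out on Lewis cells, an established mouse lung carcinoma line, after 24 hours with DMSO, the vehicle, in 3 samples, or with SD70, which the study describes as an inhibitor of the histone demethylase KDM4C, in 3 samples. No genotype difference separated the groups, and the dose of SD70 for this experiment is not given in the sources used here. The study's methods state in general that experiments were repeated independently. The labels do not say that the 3 samples of a group came from separate cultures, and if they did not, p-values measure only the spread between these samples, which may be technical.

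H3K9 methylation is a mark of silent chromatin. The SUV39H enzymes place the trimethyl mark at pericentric repeats, EHMT1 (GLP) and EHMT2 (G9a) place lower methylation states in gene-rich chromatin, and SETDB1 is brought to repeats and retroviral elements by TRIM28 bound to zinc finger proteins. The chromodomain proteins HP1 alpha, beta and gamma, encoded by Cbx5, Cbx1 and Cbx3, bind the methylated residue, and KDM4 enzymes remove the methyl groups. The comparison of SD70 with DMSO therefore asks whether the transcripts for the writers and readers of the mark were at other levels in cells kept with a compound directed at an eraser of it.

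Expected counts per sample summed to between 15276744 and 17060424, which sets the counting error, and the 10 genes had from 239 to 4133 normalized counts per sample. A normalized count is a count after scaling of each library to a common effective size. Differences were tested by edgeR's quasi-likelihood test, with p-values adjusted over all 11552 genes and a threshold of 0.01. In this test 49.9% of all genes passed, 25.8% with a higher and 24.2% with a lower level with SD70, which is the background for the counts that follow. Both epithelial markers that could be tested were lower with SD70 by edgeR: Krt8 had 3925 to 4150 counts with DMSO and 2382 to 2875 with SD70 (log2 fold change -0.55, adjusted p = 3.28e-11), and Krt18 had 77 to 101 and 31 to 41 (log2 fold change -1.22, adjusted p = 2.97e-07). Epcam, Cdh1, Krt19 and Sftpc had at most 1 count in any sample. The summed counts of 8 immune markers were 274 to 289 with DMSO and 192 to 221 with SD70, and Ptprc had at most 2. Most of these counts were from Cd68, which had 245 to 253 counts with DMSO and 155 to 175 with SD70, whereas Lyz2 had 11 to 15 and 15 to 26 (log2 fold change 0.79, adjusted p = 0.0256 by edgeR). The 6 fibroblast markers summed to 15928 to 16065 counts with DMSO and 11920 to 13380 with SD70, and 3 of the 4 that could be tested were lower with SD70. Most of these counts were from Col3a1, which had 13067 to 13180 counts with DMSO and 10298 to 11614 with SD70. Col1a1 and Col1a2 had at most 6 and 11 counts in any sample. Lum, the tested marker that was not lower, had 24 to 30 and 31 to 39 (log2 fold change 0.46, adjusted p = 0.0827 by edgeR). Markers of endothelial cells summed to 58 to 69 and 63 to 71 counts. The part of these shifts in the results below was not tested, and in such bulk RNA, fewer cells of a type and less RNA per cell cannot be told apart.

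At this threshold 3 of the 10 genes were lower with SD70 (Suv39h1, Ehmt2 and Cbx5), 1 was higher (Setdb2) and 6 did not pass (Ehmt1, Suv39h2, Setdb1, Cbx1, Cbx3 and Trim28). That is 4 of 10 beside 49.9% of all genes, a share near the background. None was past 1 on the log2 scale, up or down, a size that 5.9% of all genes tested reached together with an adjusted p under 0.01. The median log2 fold change of the 10 genes was -0.02, beside -0.00432 for all genes tested. All 10 lay between the 10% and 90% points of all genes, which were at -0.54 and 0.57. In 5 of the 10 genes the SD70 samples all lay above or all below the DMSO samples, which was so for 64.4% of all genes. In 4 of the 10 genes the SD70 samples all lay below the DMSO samples, which was so for 31.6% of all genes. Within each of the 3 pairs of methyltransferases 1 gene passed the test and the other did not, which is not a test of the difference between them. The ratios within the pairs are given further on, with a test that 3 samples a group are too few to pass.

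**Figure D1:**
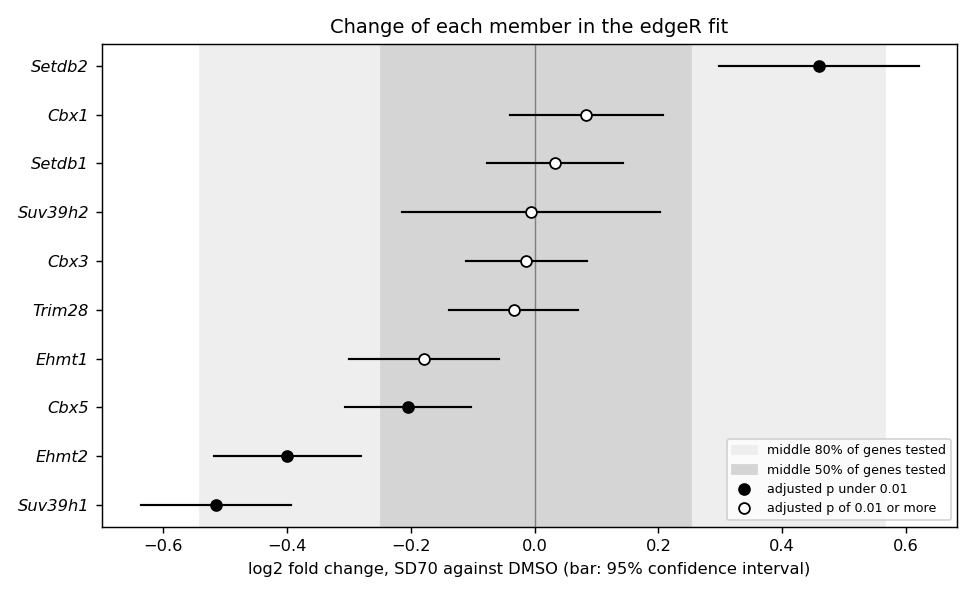
Log2 fold change of each of the 10 genes, SD70 against DMSO (x axis), with its 95% confidence interval as a bar and filled points for an adjusted p under 0.01 in edgeR's quasi-likelihood test. The shaded bands hold the middle 50% and 80% of all 11552 genes tested, and all 10 points lie within the wider band, from Suv39h1 at -0.51 to Setdb2 at 0.46.

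Suv39h1 (NCBI Gene 20937) encodes the enzyme that trimethylates H3K9 in pericentric heterochromatin. In the RefSeq annotation of GRCm38.p6 it lies at chrX:8061171-8074760 on the minus strand. It had 1184, 1171 and 1175 normalized counts in DMSO samples 1, 2 and 3 and 775, 882 and 813 in SD70 samples 1, 2 and 3. The DMSO samples lay within a few counts of each other, and every SD70 sample was below all of them. The means were 1177 ± 6.55 (SD, n = 3) and 823 ± 54.0 (SD, n = 3), a fall of 30.0% and the largest fall of the 10 genes. By edgeR this was a log2 fold change of -0.51, with a standard error of 0.0600 and an adjusted p of 4.33e-09. An annotated antisense transcript, Gm14820, overlaps 13449 bases of the gene. Whether counting used strand is not given in the sources used here, and reads of such a partner could then not be told apart from those of Suv39h1.

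Its paralog Suv39h2 (NCBI Gene 64707, chr2:3455815-3474986, minus strand) encodes the second enzyme of the pair, best known from testis and embryo. It had the lowest level per length of the 10 genes, and 273, 288 and 324 normalized counts in the DMSO samples against 332, 239 and 312 in the SD70 samples. The SD70 samples spanned a wider range than the DMSO samples and the groups overlapped. Both means were 295, with SDs of 26.3 and 48.8 (n = 3 each). The log2 fold change was -0.01 (95% confidence interval -0.21 to 0.20, adjusted p = 0.965 by edgeR), so a change as large as that of Suv39h1 lay outside the interval. Most of its expected counts were not whole numbers, and it shares 8316 bases with Dclre1c on the other strand, a DNA repair nuclease gene whose log2 fold change was -0.18 (adjusted p = 0.0392 by edgeR). The part of shared reads in the values of Suv39h2 was not tested.

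The promoters of the genes with the largest fall and the largest rise are printed here, since Suv39h1 and Setdb2 mark the ends of the range. They are RefSeq sequences of GRCm38.p6 from 250 bases before to 50 bases after a start, 5′ to 3′ on the gene's strand. Capitals mark CCAAT or its reverse complement, and the GC box GGGCGG. The first Suv39h1 window is chrX:8074711-8075010, the second, for a start further along the gene, is chrX:8074312-8074611, and that of Setdb2 is chr14:59440831-59441130, all on the minus strand.
Suv39h1 promoter 1: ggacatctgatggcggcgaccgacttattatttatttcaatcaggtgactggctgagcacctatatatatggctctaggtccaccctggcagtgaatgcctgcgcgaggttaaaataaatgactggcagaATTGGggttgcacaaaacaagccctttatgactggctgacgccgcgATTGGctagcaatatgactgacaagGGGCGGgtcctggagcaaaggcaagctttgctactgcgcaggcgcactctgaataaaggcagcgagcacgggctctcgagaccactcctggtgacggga
Suv39h1 promoter 2: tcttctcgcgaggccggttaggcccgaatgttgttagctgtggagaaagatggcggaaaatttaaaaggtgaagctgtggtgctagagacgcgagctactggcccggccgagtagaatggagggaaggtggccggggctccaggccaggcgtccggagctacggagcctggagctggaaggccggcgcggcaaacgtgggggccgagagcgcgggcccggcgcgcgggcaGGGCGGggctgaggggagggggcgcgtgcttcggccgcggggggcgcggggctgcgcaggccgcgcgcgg
Setdb2 promoter: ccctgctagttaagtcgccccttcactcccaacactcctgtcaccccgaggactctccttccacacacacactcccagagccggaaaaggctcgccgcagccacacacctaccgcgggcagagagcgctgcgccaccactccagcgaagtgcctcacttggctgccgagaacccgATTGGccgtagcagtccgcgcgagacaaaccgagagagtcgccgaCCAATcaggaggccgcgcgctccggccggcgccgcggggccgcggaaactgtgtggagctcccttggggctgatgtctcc

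The first Suv39h1 window held CCAAT on the reverse strand at positions -120 and -74 and GGGCGG on the forward strand at -49, counted from 0 at the start. The second window held GGGCGG at -20 and no CCAAT. The Setdb2 window held CCAAT on the reverse strand at -75 and on the forward strand at -30, and no GGGCGG. The searches covered both strands, and none of the motifs searched overlaps another in these windows. Of the 32851 promoters of 27025 genes in the table, 37.4% held CCAAT and 35.7% held GGGCGG, so these letters are common. TTTGGCGC and TTTCGCGC (forms of the E2F site), GCATGCGC (the NRF1 core) and TGATGNAAT (the ATF4 element) were in none of the 3 windows, and were in 0.514%, 0.323%, 2.71% and 0.965% of all promoters. Among all windows of the 10 genes, only the first of Cbx3 held any of these 4, TTTGGCGC at -168. The windows differed in base composition: the first of Suv39h1 had 15 CpG and 53.0% GC, the second 37 and 71.0%, and that of Setdb2 29 and 66.3%, beside a median of 7 CpG and 52.7% over all promoters. A match of letters is a description and not a bound site.

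Ehmt2 (NCBI Gene 110147, chr17:34898463-34914073, plus strand) encodes G9a, the catalytic partner of GLP in euchromatin. It had 2613, 2377 and 2350 normalized counts in the DMSO samples against 1679, 1941 and 1945 in the SD70 samples. Every SD70 sample was below every DMSO sample, with SD70 sample 1 the lowest and DMSO sample 1 the highest. The means were 2447 ± 145 (SD, n = 3) and 1855 ± 152 (SD, n = 3), a fall of 24.2%. The log2 fold change of -0.40 had a standard error of 0.0583 and an adjusted p of 5.01e-07 by edgeR. Both RefSeq promoter windows of Ehmt2 were rich in CpG, with 28 and 40.

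Ehmt1 (NCBI Gene 77683, chr2:24790769-24919643, minus strand) encodes GLP, which forms a heteromer with G9a. Its normalized counts were 1094, 1118 and 1069 with DMSO against 954, 912 and 1036 with SD70. The groups did not overlap, but SD70 sample 3 came close to DMSO sample 3. The means were 1094 ± 24.3 and 967 ± 63.4 (SD, n = 3 each). The log2 fold change was -0.18 (95% confidence interval -0.30 to -0.06), and the adjusted p of 0.0103 by edgeR just missed the threshold of 0.01. Over 17 alternative settings the adjusted p ran from 0.00171 to 0.0756 and was under 0.01 in 6, and without SD70 sample 3 it was 0.00211 with a log2 fold change of -0.24.

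Setdb2 (NCBI Gene 239122, chr14:59402009-59440880, minus strand), a SET domain protein with a methyl-CpG binding domain, was the gene that rose. It had 327, 313 and 328 normalized counts in the DMSO samples against 481, 432 and 417 in the SD70 samples, all of them above the DMSO samples. The means were 323 ± 8.65 and 443 ± 33.5 (SD, n = 3 each), a rise of 37.5%. On the log2 scale the change was 0.46, with a standard error of 0.0793 and an adjusted p of 6.97e-06 by edgeR. Cab39l, which starts 88 bases away on the other strand, had a log2 fold change of 0.05 (adjusted p = 0.537 by edgeR). Most expected counts of Setdb2 were not whole numbers, as happens where reads are divided between features.

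Setdb1 (NCBI Gene 84505, chr3:95323525-95357202, minus strand), the enzyme brought to chromatin by TRIM28, had 1368, 1349 and 1362 normalized counts with DMSO against 1416, 1347 and 1410 with SD70. The groups overlapped within a narrow range. The means were 1360 ± 9.74 and 1391 ± 38.4 (SD, n = 3 each), with a log2 fold change of 0.03 (95% confidence interval -0.08 to 0.14, adjusted p = 0.625 by edgeR). Its sign was negative under library totals and upper quartile scaling (-0.00574 and -0.0101). Trim28 (NCBI Gene 21849, chr7:13024152-13031032, plus strand), also called KAP1, had 2924, 2982 and 2982 normalized counts with DMSO against 2720, 2918 and 3046 with SD70. The SD70 samples lay on both sides of the DMSO samples. The means were 2962 ± 33.0 and 2895 ± 165 (SD, n = 3 each), with a log2 fold change of -0.03 (95% confidence interval -0.14 to 0.07, adjusted p = 0.588 by edgeR). The intervals of both genes leave out changes of the size seen for Suv39h1, Ehmt2 and Setdb2. Trim28 shares 6137 bases with Zbtb45 on the other strand, a gene with a mean of 135 normalized counts with DMSO.

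**Figure D2:**
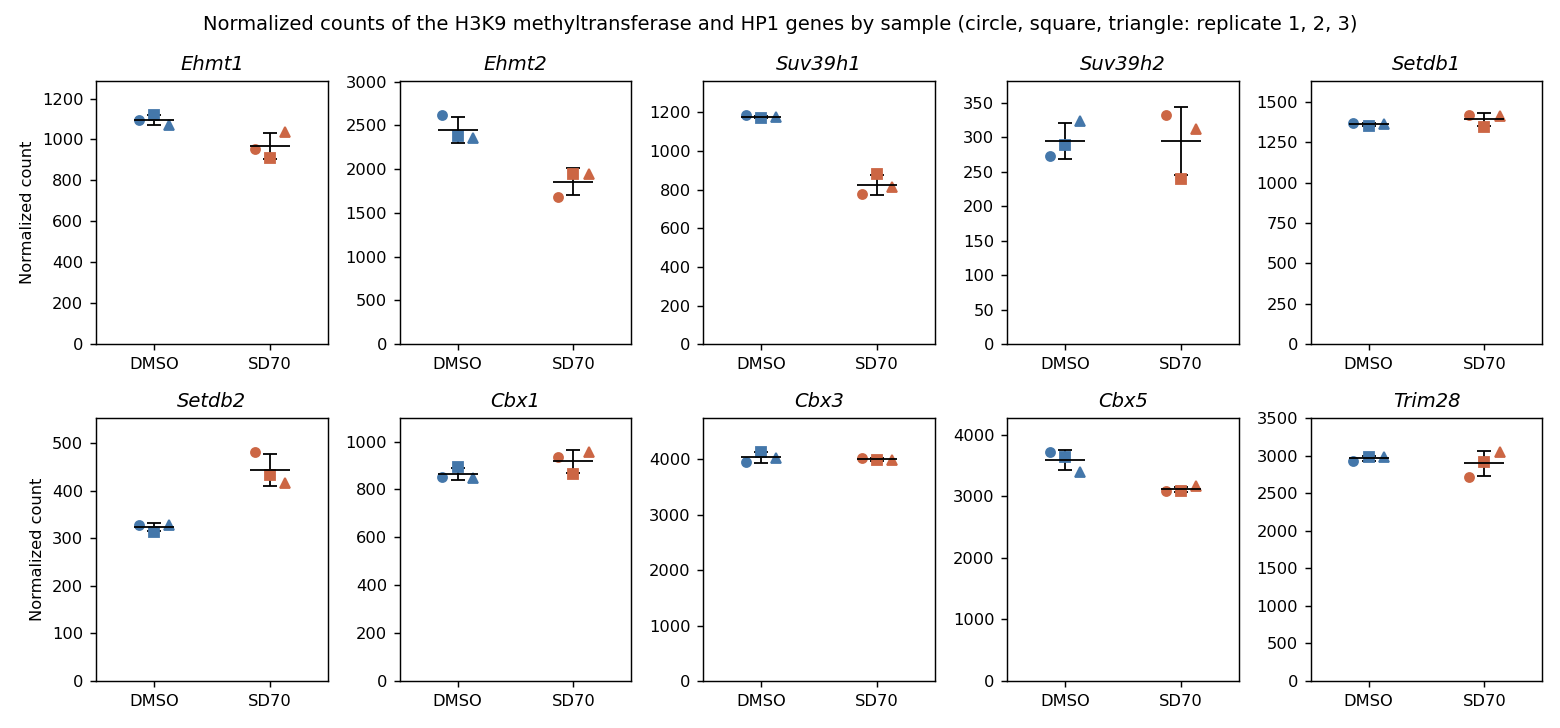
Normalized counts of the 10 genes (y axes, from 0) in the 3 DMSO and the 3 SD70 samples, with the mean and SD as lines and the replicate shown by the shape of the point. The SD70 samples lie below all DMSO samples for Ehmt1, Ehmt2, Suv39h1 and Cbx5 and above them for Setdb2, and the groups overlap in the other 5 panels.

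Among the readers, Cbx3 (NCBI Gene 12417, chr6:51470154-51483704, plus strand), encoding HP1 gamma, which is found in euchromatin as well as heterochromatin, had 3946, 4133 and 4031 normalized counts with DMSO against 4022, 3984 and 3994 with SD70. The SD70 samples lay within the range of the DMSO samples. Its log2 fold change was -0.01 (95% confidence interval -0.11 to 0.08, adjusted p = 0.827 by edgeR), with means of 4037 ± 94.1 and 3999.8 ± 19.5 (SD, n = 3 each). Cbx1 (NCBI Gene 12412, chr11:96788680-96808982, plus strand), encoding HP1 beta, had 854, 894 and 850 normalized counts with DMSO against 935, 864 and 956 with SD70. A pair of its SD70 samples lay above the DMSO samples and the other between them. The means were 866 ± 24.8 and 918 ± 48.2 (SD, n = 3 each), with a log2 fold change of 0.08 (95% confidence interval -0.04 to 0.21, adjusted p = 0.239 by edgeR).

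Cbx5 (NCBI Gene 12419, chr15:103191546-103239904, minus strand) encodes HP1 alpha, a form found mainly in pericentric heterochromatin. It had 3721, 3634 and 3403 normalized counts in the DMSO samples against 3083, 3091 and 3165 in the SD70 samples. Every SD70 sample was below every DMSO sample. The means were 3586 ± 164 and 3113 ± 45.2 (SD, n = 3 each), a fall of 13.2%, or -0.20 on the log2 scale, with a standard error of 0.050 and an adjusted p of 0.000679 by edgeR. The FPKM values of the same gene, which are divided by transcript length and library size, gave another picture. They were 31.3, 33.8 and 32.2 with DMSO against 34.7, 30.0 and 31.5 with SD70, and these groups overlapped. On the log2(FPKM + 1) scale limma gave a difference of -0.02 and an adjusted p of 0.808, and the call was lost.

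A count and an FPKM value of the same sample imply a length by which the count was divided, if the summed counts are taken as the library size. How the authors set that length and size is not given in the sources used here. The implied length need not equal a spliced length: Trim28, with 1 coding transcript of 3245 bases, had 3055 to 3087. For Cbx5 that implied length was 7261, 6601 and 6456 bases in the DMSO samples against 5282, 6162 and 5986 bases in the SD70 samples. It was shorter in every SD70 sample than in any DMSO sample, with means of 6773 ± 429 and 5810 ± 466 bases (SD, n = 3 each), a log2 difference of -0.22. SD70 sample 1 was the shortest, and the groups did not overlap without it either. Of the 10156 genes with an FPKM of at least 1, 0.138% had a larger difference in implied length, and 9.76% had shorter values in all SD70 samples. For the other 9 genes the implied length moved by no more than 0.01 on the log2 scale and its range over the 6 samples was between 0.50% and 3.49% of the shortest value, against 37.5% for Cbx5. The GENCODE M21 annotation holds 4 coding transcripts of Cbx5, of 376, 1146, 3661 and 8803 bases, and all 6 implied lengths lay between those of the longest pair. The files do not give transcripts one by one, so which of them the reads came from was not tested. The fall of Cbx5 thus holds for counts per gene and not for the level per length.

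**Figure D3:**
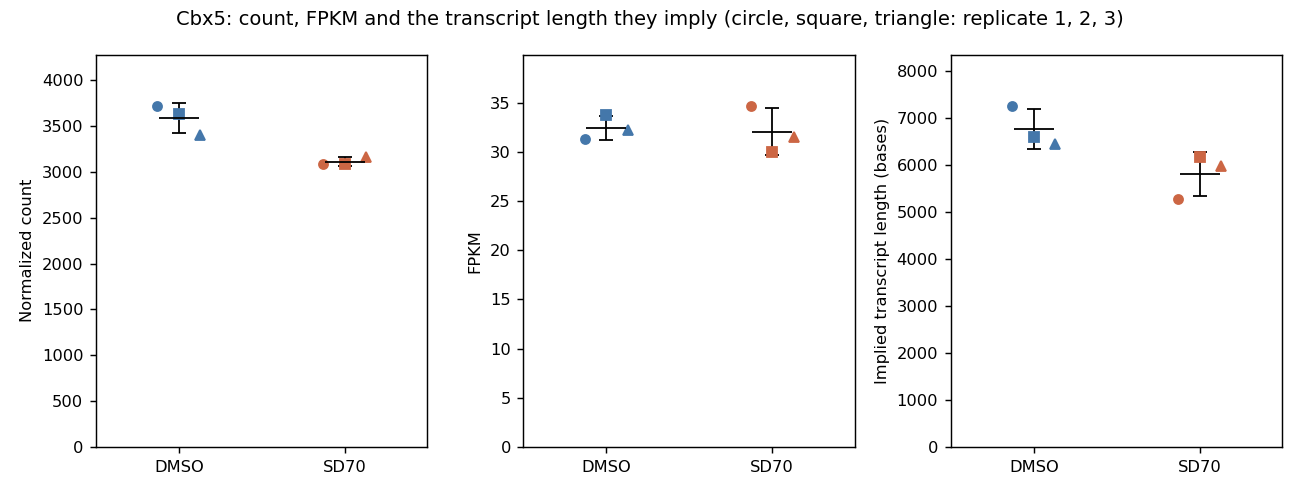
Cbx5 in the 6 samples, with the normalized count, the FPKM and the implied transcript length in bases on y axes that start at 0; lines give the mean and SD and the shape of a point the replicate. Counts fall from 3403 or more with DMSO to 3165 or less with SD70, the FPKM values overlap between 30.0 and 34.7, and the implied length is 6456 bases or more with DMSO and 6162 or less with SD70.

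Per length, HP1 gamma had the highest level of the readers. Cbx3 had an FPKM of 157 ± 3.67 with DMSO against 153 ± 1.45 with SD70 (SD, n = 3 each), above 96.1% of the genes tested with DMSO. It was the highest of the 10 genes in both groups and far from the next, Trim28, at 59.0 ± 0.644 and 56.3 ± 3.30. Ehmt2 followed with DMSO at 40.5 ± 2.52, then Cbx1 at 33.4 ± 1.69 and Cbx5 at 32.4 ± 1.26, the last 2 within their spread of each other. With SD70 Ehmt2, at 30.0 ± 2.52, stood after Cbx1 at 34.4 ± 1.94 and Cbx5 at 32.0 ± 2.40, and its range met that of Cbx5. Below them came Suv39h1 (24.9 ± 0.211 with DMSO, 17 ± 1.2 with SD70) and Setdb1 (18.7 ± 0.108 and 18.6 ± 0.497), which also changed places, with ranges apart with DMSO and overlapping with SD70. Ehmt1 (13.7 ± 0.340 and 11.8 ± 0.756), Setdb2 (7.01 ± 0.162 and 9.41 ± 0.685) and Suv39h2 (4.38 ± 0.382 and 4.28 ± 0.703) were the last in both groups, in that order, with no overlap between neighbours. All FPKM means are given with SD and n = 3, and their order is a description without a test.

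Of the summed FPKM of the 3 HP1 genes, Cbx3 made up 70.8%, 70.0% and 70.7% in the DMSO samples against 69.0%, 70.9% and 69.2% in the SD70 samples. Cbx1 gave 15.0% ± 0.339 and 15.7% ± 0.719 and Cbx5 14.5% ± 0.174 and 14.6% ± 0.789 (SD, n = 3 each). Exact two-sided permutation tests of these shares gave p = 0.4 for Cbx3, 0.2 for Cbx1 and 0.9 for Cbx5. With 3 against 3 samples p cannot go below 0.1, so none of the shares could have passed 0.05. From normalized counts in place of FPKM the shares of Cbx3 and Cbx5 turned direction, with differences of 2.25 and -3.48 percentage points against -0.79 and 0.08 from FPKM, each with an exact permutation p of 0.1. The sum itself was 223 ± 6.54 with DMSO and 219 ± 4.74 FPKM with SD70 (exact permutation p = 0.5, n = 3 each).

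The ratios of the paralogs were tested in the same way, with the same limit on p. The ratio of Suv39h1 to Suv39h2 in FPKM was 5.70 with DMSO and 4.01 with SD70, on the log2 scale 2.51 ± 0.137 and 2.00 ± 0.348 (SD, n = 3 each), with an exact two-sided permutation p of 0.2. That of Setdb1 to Setdb2 was 2.66 and 1.98, on the log2 scale 1.41 ± 0.0277 and 0.989 ± 0.0991, and its SD70 samples all lay below the DMSO samples (exact permutation p = 0.1, the smallest possible with n = 3 each). That of Ehmt1 to Ehmt2 was 0.338 and 0.393, on the log2 scale -1.57 ± 0.0876 and -1.35 ± 0.140 (exact permutation p = 0.2, n = 3 each). Adjusted over the 6 tests of shares and ratios, p ran from 0.3 to 0.9. Since p could not go below 0.1, none could have passed 0.05, and these tests do not decide whether the ratios differed.

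The genes around this core were taken from 10 lists of chromatin and cell cycle genes, of which 80 of 84 genes could be tested. With SD70, 19 were higher, 24 were lower and 37 did not pass, which is again close to the share of all genes. Among partners of G9a and GLP, Zfp644, the zinc finger partner, rose by 0.39 on the log2 scale (adjusted p = 4.61e-06 by edgeR) where its normalized counts averaged 588 ± 11.7 against 769 ± 42.1 in SD70 samples (SD, n = 3 each), and 1 of 2 passed. Of the SETDB1 cofactors and the HUSH complex, which silences repeats with SETDB1, 2 of 5 were higher and 3 did not pass. Those higher were Morc2a, an ATPase that acts with HUSH (0.37, adjusted p = 2.03e-06 by edgeR), and Pphln1, a HUSH subunit (0.32, adjusted p = 1.59e-05). Atf7ip, which stabilizes SETDB1, had a log2 fold change of -0.01 (adjusted p = 0.864).

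Of 14 HP1 partners and heterochromatin factors 4 were higher and 5 lower, with a median log2 fold change of 0.01. Sirt1, a deacetylase that acts with SUV39H1, rose by 0.57 (adjusted p = 6.06e-09 by edgeR), Chaf1b, a subunit of the chromatin assembly factor, by 0.47 (adjusted p = 1.76e-07), and Adnp, a zinc finger protein that binds HP1, by 0.32 (adjusted p = 2.51e-06). Ahdc1 had the largest fall of this list, at -0.70 (adjusted p = 4.40e-10). Chaf1a, the partner of Chaf1b in the same complex, fell by 0.38 (adjusted p = 3.92e-07 by edgeR). The list thus held changes in both directions. Of 3 testable PRDM genes 1 passed: Prdm9, a methyltransferase of meiosis, had 207 ± 20.5 and 164 ± 14.9 normalized counts (log2 fold change -0.33, adjusted p = 0.00822 by edgeR), which passed in 10 of 17 alternatives. It did not pass without DMSO sample 1 or 2 or SD70 sample 2 or 3, with adjusted p of 0.0608, 0.0191, 0.0539 and 0.0231 by edgeR. Without DMSO sample 1 or SD70 sample 2 the list instead held 1 higher gene and 0 lower.

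Of the H4K20 methyltransferases, KMT5B and KMT5C act after H3K9 trimethylation, since they are bound by HP1. These 2 enzymes moved in opposite directions. Normalized counts of Kmt5b rose from 677 ± 22.9 to 1106 ± 86.0 (log2 fold change 0.71, adjusted p = 1.30e-11 by edgeR) and those of Kmt5c fell from 745 ± 92.2 to 423 ± 7.78 (log2 fold change -0.82, adjusted p = 6.34e-11), with SD and n = 3 in each group. Of 3 enzymes in this list, 1 was thus higher and 1 lower, with 2 higher without SD70 sample 2.

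On the side of removal, 2 of 10 testable H3K9 demethylases were higher and 4 lower. Without DMSO sample 2 or 3 or SD70 sample 3, under library totals and upper quartile scaling and by limma on FPKM, 1 was higher. Kdm4a had 1722 ± 53.3 normalized counts with DMSO and rose to 3336 ± 359 (SD, n = 3 each; log2 fold change 0.95, adjusted p = 5.33e-14 by edgeR), a larger change than any of the 10 writers and readers. Kdm4b fell from 1074 ± 41.2 to 682 ± 35.9 (log2 fold change -0.65, adjusted p = 4.08e-11). Kdm4c, whose protein the study names as the target of SD70, had 753 ± 34.6 and 765 ± 34.2 (log2 fold change 0.02, adjusted p = 0.769, with the sign negative under library totals and upper quartile scaling), and Kdm4d had at most 1 count in a sample. Kdm7a and Kdm3a, other demethylases of the jumonji type, fell by 0.74 and 0.69 (adjusted p = 3.77e-11 and 4.96e-12).

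Of 8 H3K36 methyltransferases, 1 was higher and 2 lower. Leaving out a sample gave 0 to 2 higher and 1 to 2 lower. Nsd2 fell by 0.25 (adjusted p = 6.52e-05 by edgeR). Setd3, also known to methylate actin (-0.16, adjusted p = 0.00912), and Setd2, which marks transcribed genes (0.18, adjusted p = 0.00586), passed in 11 and 8 of 17 alternatives. By edgeR, Setd3 had an adjusted p of 0.0225, 0.0209 and 0.0233 without DMSO sample 1, 2 or 3 and of 0.0441 and 0.0137 without SD70 sample 2 or 3. Setd2 had 0.0304 and 0.0625 without DMSO sample 2 or 3 and 0.0638 and 0.0193 without SD70 sample 1 or 3, and its groups overlapped. Of 11 Polycomb genes, 2 were higher and 3 lower, with 1 higher when any of the 6 samples was left out, under library totals, upper quartile scaling and both other count filters, and with FPKM. Cbx2 and Cbx6, Polycomb paralogs of the HP1 genes, fell by 0.60 and 0.30 (adjusted p = 8.93e-07 and 3.97e-06 by edgeR). Of 10 testable DNA methylation genes 2 were higher and 3 lower. The higher count was 1 without DMSO sample 1, 2 or 3 or SD70 sample 1 or 3, with DESeq2, under library totals, upper quartile scaling and both other count filters, and by limma on FPKM it was 0. Dnmt3a and Dnmt1, which place and keep DNA methylation, fell by 0.41 and 0.31 (adjusted p = 1.86e-07 and 1.68e-06 by edgeR), and Tet2, which oxidizes it, had a log2 fold change of -0.66 (adjusted p = 0.00609, past the threshold in 14 of 17 alternatives). Without SD70 sample 1, 2 or 3 the adjusted p of Tet2 was 0.0199, 0.0376 and 0.0467 by edgeR.

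As a measure of cycling, 14 genes of S phase and mitosis were set beside these. Of these 4 were higher and 5 lower, with a median log2 fold change of 0.04. Without DMSO sample 2, 3 were lower, and without SD70 sample 3 or by limma on FPKM, 2 were higher. The 4 that rose were Tyms, Mcm3, Mcm2 and Pcna, by 0.30, 0.28, 0.23 and 0.15 (adjusted p = 0.000264, 8.32e-06, 0.000465 and 0.00767 by edgeR). Mcm7, of the same helicase as Mcm2 and Mcm3, fell by 0.19 (adjusted p = 0.00169). Mcm4, Mcm5, Mcm6, Rrm2 and Ccnb1, the cyclin partner of Cdk1, did not pass, with adjusted p of 0.0127, 0.204, 0.908, 0.947 and 0.0934 by edgeR. The log2 fold change of Ccnb1 was 0.10, with all SD70 samples above the DMSO samples. Top2a and Cdk1, used in mitosis, fell by 0.38 and 0.34 (adjusted p = 3.22e-08 and 1.63e-06 by edgeR), and Mki67, a marker of cycling cells, had a log2 fold change of -0.66 (adjusted p = 0.00685, past the threshold in 13 of 17 alternatives). Without DMSO sample 1 or 2 its adjusted p by edgeR was 0.0132 and 0.0167, and without SD70 sample 2 or 3 it was 0.0196 and 0.0209. The part of the cell cycle in the values of Suv39h1, Ehmt2 and Cbx5 was not tested.

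**Figure D4:**
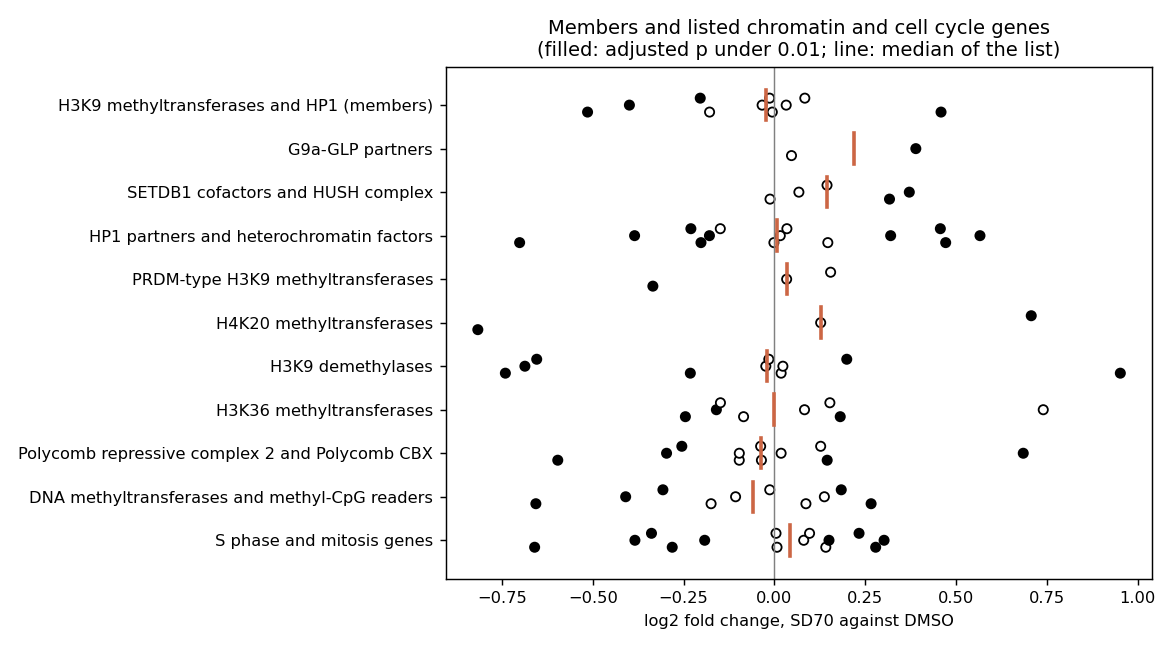
Log2 fold change of every tested gene of the 10 writers and readers and of the 10 lists, SD70 against DMSO (x axis), by list (y axis); filled points have an adjusted p under 0.01 in edgeR's quasi-likelihood test and lines mark the median of a list. The medians lie between -0.06 and 0.22, and single genes range from Kmt5c at -0.82 to Kdm4a at 0.95.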

How the data were processed

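RNA-seq of 6 samples of Lewis cells was analysed, 3 with DMSO and 3 with SD70, grouped by the treatment label. The authors aligned clean BGISEQ-500 reads to GRCm38.p6 with HISAT, and the submitters' processing notes also name StringTie 1.3.3b and another mouse build; the counting tool is not given in the sources used here. The authors deposited estimated counts per gene, not normalized and not always whole, and FPKM values, scaled by them for transcript length and library size. In a sample 8.84% to 9.28% of counts were not whole, and all were rounded before testing. After filterByExpr and TMM scaling, the quasi-likelihood test of edgeR 4.0.16 (glmQLFit with robust estimation, R 4.3.3) was run with Benjamini-Hochberg adjustment over 11552 genes. The implied length was the count divided by FPKM and the sample's total, a measure chosen after the data were seen. Within groups the samples differed by more than counting noise (chi-square per gene 2.12 to 4.92), so no library was treated as deposited more than once; this does not show separate cultures.

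The 10 genes, the lists and the tests were chosen with earlier results of these data known. Besides the 10 genes, the text names up to 3 genes of a list by absolute log2 fold change, among those past 0.01 with a mean of at least 100 normalized counts, and Kdm4a, Kdm4b, Kdm4c, Kdm4d, Atf7ip and Adnp whatever their values; marker genes, neighbouring genes, Chaf1a, Tyms, Pcna, Ccnb1, Rrm2 and Mcm2 to Mcm7 were named after their values were seen. Alternatives were DESeq2's size factors, counts that were not rounded, library totals, upper quartile scaling, other count filters, the replicate number as a block, DESeq2 1.42.0, limma 3.58.1 on log2(FPKM + 1) and log2(FPKM + 0.1), an adjusted p under 0.05 and leaving out each sample. Protein sequences were not used here, and 1 gene that the rule names is not reported here.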

Additional observations from a re-analysis of the deposited data

How the results depend on the processing

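Precision is limited by 3 samples a group and, for Suv39h2 and Setdb2, by low counts. Over 17 alternatives Ehmt2 (-0.44 to -0.33), Suv39h1 (-0.57 to -0.47) and Setdb2 (0.38 to 0.49) kept their direction and passed in all 17, and Cbx5 passed in 15. With FPKM in limma, 12 list genes in place of 19 were higher with either pseudocount. Signs that turned all belonged to values that had not passed: Setdb1 (-0.00574 with library totals, -0.0101 with the upper quartile, -0.00152 and -0.00161 with FPKM + 1 and + 0.1), Kdm4c (-0.0148, -0.0191, -0.00710 and -0.00763 in the same order, and -0.0237 to 0.0551 when a sample was left out, negative without DMSO 2 and, at -0.0106, without SD70 1), Atf7ip (-0.0368 to 0.010 when a sample was left out, positive without DMSO 1 and, at 0.00821, without SD70 1), Suv39h2 (-0.102 to 0.129, positive without DMSO 3, at 0.0596, and without SD70 2) and Trim28 (-0.0779 to 0.0105, positive without SD70 1). From normalized counts in place of FPKM, the Cbx3 share moved by 2.25 and the Cbx5 share by -3.48 percentage points (exact permutation p = 0.1 each), and the Cbx5 share in FPKM by -0.0233 without DMSO 1 and -0.368 without SD70 1. The cause was not tested. With the replicate number as a block, 4 of the 10 genes were lower (Ehmt1 at adjusted p = 0.00940 by edgeR) and 1 higher, and 5913 of all genes passed in place of 5767, with 1 PRDM gene higher in place of 0. Deviations of same-numbered samples had a Pearson r of -0.0686, 0.0477 and 0.114 over all genes and of 0.176, 0.254 and 0.157 over the 9623 with a mean of at least 100 counts, where each sample fitted its own number best. With such a dependence on the genes used, the numbers were not taken as pairs.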

Other observations

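Nsd1, an H3K36 methyltransferase chosen here after its values were seen, was listed at an FPKM of 0.230, 0.350 and 0.220 with DMSO, against 0.210, 0.250 and 0.250 with SD70. Its relative Nsd2 had at least 41.3 in every sample.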
